A study of Mus musculus with 8 samples.

Results

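The 38209 regions bound in an anti-NONO RNA immunoprecipitate of fasted mouse liver nuclei were set against the 55946 regions of an immunoprecipitate made with non-specific IgG. All 38209 of the 206501 peaks in the 4 deposited lists that belong to the fasted NONO library were taken, with no further choice. Each was classed by whether an IgG peak overlapped it by at least 1 bp, and tags were also summed per gene body. The animals were wild-type C57BL/6 mice aged 14 weeks, under 12 h light and 12 h dark, with food in the dark phase only. The fasted livers were taken at zeitgeber time 10, that is 10 h after lights on. Re-fed livers, used here only for side values, came from 2 h of feeding at zeitgeber time 14 and from 10 h at zeitgeber time 22. The labels give no feeding state and no time for the IgG livers, so a difference from IgG cannot be told apart from a difference of state or time. Every group is 1 library, and each library is a pool of 2 experiments. No difference therefore has a replicate error, no p-value was computed, and intervals cover counting error only.

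NONO is a nuclear protein that binds RNA and DNA and forms dimers with SFPQ and PSPC1. It is a core protein of paraspeckles, nuclear bodies assembled on the long non-coding RNA Neat1 that hold back certain transcripts in the nucleus. It is also known to bind the primary transcripts of microRNAs, which are cut in the nucleus to hairpins and later to the mature microRNA. In the fasted liver, fatty acid oxidation, ketogenesis and gluconeogenesis from amino acids run high while lipogenesis is low.

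The fasted library held 21032764 tags and the IgG library 18995778 tags. Of the IgG tags 7120434, or 37.5% against 9.46% of the matched input, fell on Rn7sk (chromosome 9, 78175137 to 78175764, GRCm38/mm10), which encodes the 7SK RNA that restrains transcription elongation. No fasted peak lay there. Values are normalised tags, scaled by the authors to 10000000 per library, and those of IgG are rescaled to 10000000 tags outside the Rn7sk peak, which multiplies them by 1.6 and divides every ratio to IgG by the same factor. The IgG folds over input given for genes are rescaled likewise, in tags and input, which multiplies them by 1.45. The median ratio of fasted NONO to IgG tags over the 5905 genes with a peak in both lists was 0.682 after rescaling and 1.09 with the deposited IgG values. Peaks were called on both strands together, so antisense and overlapping genes cannot be separated, and in bulk nuclei fewer cells of a type and less RNA per cell cannot be told apart.

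MicroRNA genes lay under several of the largest IgG-free peaks. These genes were chosen after the values had been seen, so they are described and not tested. Of the fasted peaks 75 lay over 94 microRNA genes, or 0.196% (0.154 to 0.246), against 68 of the IgG peaks, or 0.122% (0.0944 to 0.154). Among peaks of at least 100 tags they made up 22 of 1248 (1.76%) in the fasted and 7 of 1876 (0.373%) in the IgG list. For IgG this cut was set on the deposited tags and not on the rescaled ones. The fasted peaks over microRNA genes were wide (median 1276 bp), and 47 of the 75 were IgG-free, a share close to the 66.3% of all peaks. That number fell to 31 with IgG peaks widened by 1000 bp. The peaks also cover sequence around the microRNA gene, so whether the microRNA precursor itself was bound was not tested. A choice of mature microRNAs encoded under peaks of at least 100 tags is printed below from RefSeq (GRCm38.p6), 5′ to 3′. The seed (bases 2 to 8, which pairs with target RNAs) is in capitals, to show which of these genes share a seed. Some larger peaks are not represented, such as those over Mir1894 (1466 tags), Mir30a (518.2) and Mir30c-2 (406). Of the 94 genes 67 had a mature sequence in that table, and for each gene shown the arm generally known as the guide is given.
let-7a-5p: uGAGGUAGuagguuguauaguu
let-7d-5p: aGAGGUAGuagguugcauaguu
let-7f-5p: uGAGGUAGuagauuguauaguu
let-7g-5p: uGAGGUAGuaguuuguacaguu
miR-15a-5p: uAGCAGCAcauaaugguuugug
miR-16-5p: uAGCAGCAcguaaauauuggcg
miR-103-3p: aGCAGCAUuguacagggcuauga
miR-107-3p: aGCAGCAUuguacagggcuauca
miR-29b-3p: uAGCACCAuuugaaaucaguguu
miR-29c-3p: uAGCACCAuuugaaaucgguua
miR-21a-5p: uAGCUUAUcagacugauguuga
miR-101b-3p: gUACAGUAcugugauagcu
miR-148a-3p: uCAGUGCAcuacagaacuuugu
These 13 sequences carry 7 different seeds. The 4 let-7 members share 1, miR-15a and miR-16 share another, and the pairs miR-103 with miR-107 and miR-29b with miR-29c likewise. In all, 8 genes of the let-7 family lay under fasted peaks.

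The largest of the microRNA peaks was that over Mir21a (chromosome 11, 86582385 to 86584808). Mir21a lies just inside the annotated end of Vmp1, a gene of autophagosome formation, and the peak runs past that end. This peak had 2263 normalised tags at 2.4-fold over input in the fasted library, 2302 tags in overlapping peaks at 2 h, 1463 at 10 h and no IgG peak. The let-7 cluster with Mirlet7a-1, Mirlet7f-1 and Mirlet7d, inside the non-coding gene 6720427I07Rik (chromosome 13, 48535269 to 48538554), had 1599 tags fasted, 2008 at 2 h and 479.3 at 10 h, again with no IgG peak. Among the NONO libraries both peaks were lowest at 10 h.

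Mir15a and Mir16-1, which lie in the non-coding gene Dleu2 (chromosome 14, 61629490 to 61633055), had 1293 tags fasted, 974.8 at 2 h and 680.2 at 10 h. An IgG peak of 57.27 rescaled tags over 627 bp lay under that fasted peak of 3565 bp, which was 363 tags per kb against 91.3 in the IgG peak. Mir1894, in the first part of Ppp1r10 (a targeting subunit of protein phosphatase 1), had 1466 tags fasted and 1250 at 2 h, with no peak at 10 h or in IgG. Mir101b, within Rcl1, had 803.5 tags fasted, 479.8 at 2 h and 177.3 at 10 h, and Mirlet7g, within Wdr82, had 393.2, 286.9 and 176.2. Neither met an IgG peak.

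Other IgG-free peaks held Mir29b-2 with Mir29c (409.4 tags fasted, 584.6 at 2 h, 407.7 at 10 h), Mir107 inside Pank1 (291, 169.7 and 241.3) and Mir148a (246.3, 621.6 and 475.5). Among all 1248 fasted peaks of at least 100 tags 375 were IgG-free and 873 met an IgG peak. Of the 22 microRNA peaks of that size 10 were IgG-free and 12 met an IgG peak. Those over Mir30a and Mir30c-2, with 518.2 and 406 fasted tags, lay under 1 IgG region of 27692 bp with 3572 rescaled tags. The paralogue of Mir107, Mir103-1 in Pank3, had 211.1 fasted tags and an IgG peak of 20.22 tags.

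These peaks reached further past the microRNA than before it. Of the 22 fasted peaks of at least 100 tags over microRNA genes, 18 extended further downstream than upstream along the microRNA's strand, with medians of 1540 bp downstream and 664 bp upstream. The Mir107 peak ran 2555 bp downstream and 266 bp upstream, and that of Mir21a 1682 and 650 bp. The same held for 25 of 41 such peaks at 2 h, 15 of 22 at 10 h and 4 of 7 in IgG (cut on deposited tags). The 4 exceptions in the fasted list were Mir29b-2 with Mir29c (466 bp downstream, 841 bp upstream), Mir103-1 (1923 and 2680 bp), Mir378a (377 and 1580 bp) and Mir29a with Mir29b-1 (775 and 1587 bp).

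**Figure D1:**
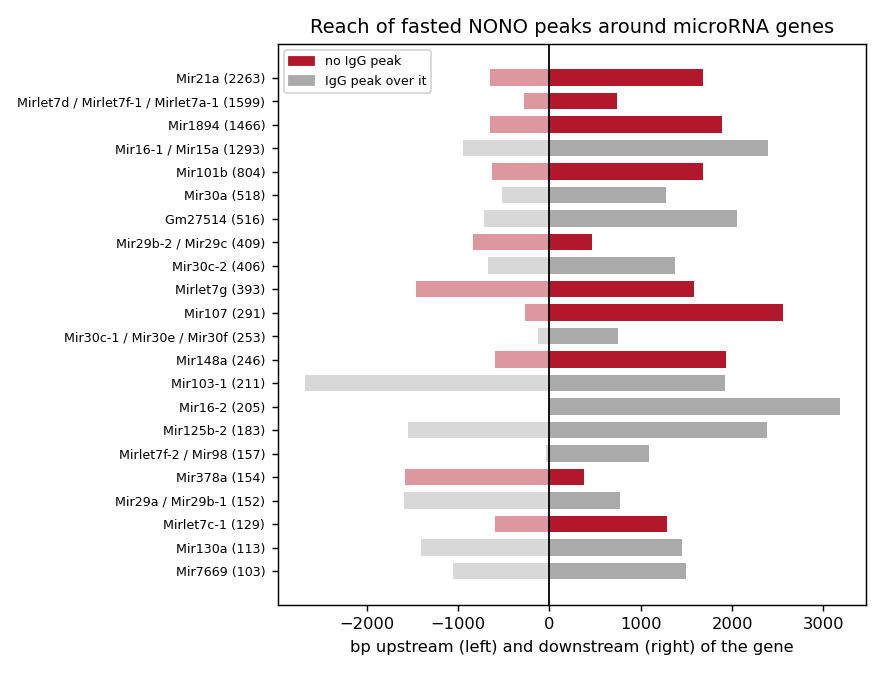
Reach in bp (horizontal axis) of the 22 fasted peaks of at least 100 normalised tags upstream (left, pale) and downstream (right, full colour) of the microRNA gene or cluster they cover, along its strand, with each peak's tags in brackets. Red peaks had no IgG peak; 18 of the 22 bars are longer on the downstream side.

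Most fasted peaks had no IgG peak over them, and those that did not were smaller and stood further above their input. Peaks without an IgG peak numbered 25317, or 66.3% (95% exact Clopper-Pearson interval 65.8 to 66.7), and 12892 met one. At the median, the former held 14.3 tags at 3.07-fold over input and the latter 24.2 tags at 2.46-fold. A fold of at least 4 was reached by 26.6% of the former and 9.91% of the latter. Both kinds held about equal shares of the tags in peaks, at 49.5% and 50.5%. The IgG-free share fell from 85% (84.2 to 85.7) among peaks under 10 tags to 29.6% (27 to 32.3) among those of 100 to 500 tags. It also fell with the input signal in the peak, from 89.7% where the input had under 2 tags per kb to 40.8% where it had 50 or more. Peaks of 100 tags or more were thus shared with IgG more often than not. Where both libraries had a peak, the tag density of the fasted peak was 1.2 times that of the rescaled IgG peak at the median (quartiles 0.882 and 1.59), while the input density was 2.58 times higher (1.6 and 4.11). With IgG peaks widened by 1000 bp on each side 47.3% of fasted peaks stayed free.

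The place of a peak in a gene went with its freedom from IgG. Introns held 34511 fasted peaks (90.3%), of which 65.1% (64.6 to 65.6) were IgG-free. Untranslated exons of coding genes held 813, of which 85.6% (83 to 88) were IgG-free, and the first 5 kb past gene ends held 1159, of which 79.4% (76.9 to 81.7) were. Coding exons held 172, with 60.5% (52.7 to 67.8) free, an interval that includes the intronic share. The difference between untranslated exons and introns was present in every range of tags: among peaks of 20 to 50 tags 83.8% (79.2 to 87.7, 309 peaks) against 54.4% (53.4 to 55.3, 10824 peaks), and among peaks of 100 tags or more 73.2% (59.7 to 84.2, 56 peaks) against 27.9% (25.3 to 30.6, 1118 peaks). Fasted peaks in untranslated exons had a median fold over input of 2.45, against 2.81 in introns. Large IgG-free peaks over untranslated exons were found in Ppp1cb, a catalytic subunit of protein phosphatase 1 (499.2 tags at 2.07-fold). Others were in Fcgr2b, the inhibitory Fc receptor of sinusoidal endothelium (544.4 tags at 2.61-fold), and Abcc2, the canalicular exporter of conjugated bilirubin (992.3 tags at 2.01-fold). Summed over the gene, Abcc2 was level with IgG (ratio 0.999), with 266 tags at 2 h and 345.1 at 10 h. Of the IgG tags in peaks 72.2% lay over small RNA genes, nearly all of them in the Rn7sk peak that the rescaled values leave out.

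**Figure D2:**
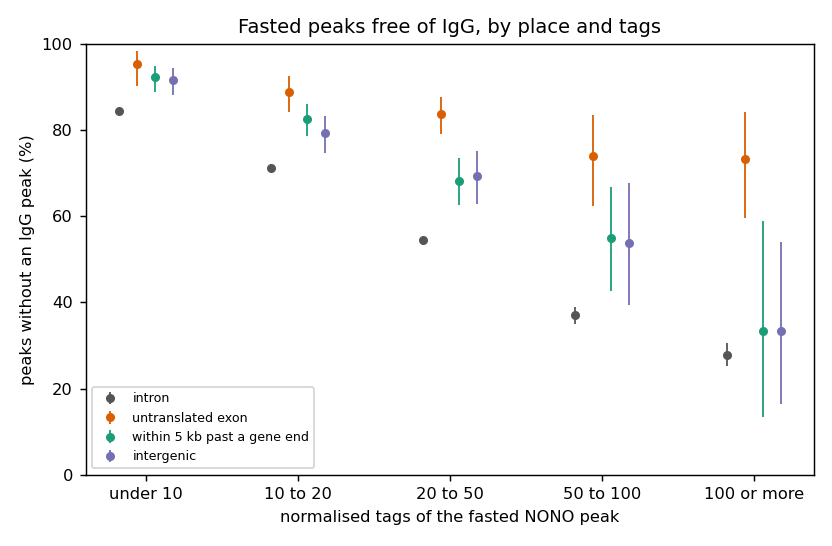
Share of fasted NONO peaks without an overlapping IgG peak (vertical axis, percent), by the normalised tags of the peak (horizontal axis), for peaks in introns, untranslated exons, the 5 kb past gene ends and between genes. Points are shares and bars 95% exact intervals for counting error; untranslated exons stay at 73.2% or above in all 5 ranges while introns fall from 84.4% to 27.9%.

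Over gene bodies, 7081 of the 32106 coding and long non-coding genes carried a fasted peak and 8870 an IgG peak. At least 50 normalised tags were reached by 3509 genes in the fasted library, and the following counts refer to these. Since that minimum is set on NONO tags alone, it favours genes that are high in NONO. Of the 3509 genes 565 (16.1%) were at least 2-fold above rescaled IgG, 1868 were within 2-fold, 957 (27.3%) were at least 2-fold below and 119 (3.39%) had no IgG peak anywhere in the gene. With the IgG tags as deposited 29.8% were above and 12.9% below. Tag density per covered kb differed less, with 6.5% above and 3.45% below, so most differences in summed tags went with the length of gene covered by peaks. Density is taken within called peaks only, so weaker signal can also appear as missing peaks and a shorter covered length. Genes above IgG had a median length of 42.6 kb, those below 68.9 kb and those with no IgG peak 17.7 kb. Long non-coding genes made up 10.1%, 7.94% and 22.7% of these 3 classes. Among the genes within 2-fold of IgG the median length was 64.7 kb and the long non-coding share 5.41%.

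The input cannot be read apart from the gene ratio, since tags are the fold over input times the input. In each of the 565 genes above IgG, the fasted input had more tags in the fasted peaks than the IgG input had in the IgG peaks, with medians of 12.1 and 3.17 tags per kb. Over all 3390 genes with an IgG peak and at least 50 fasted tags this was so in 67.5%. Wherever the IgG fold is the higher, a tag ratio of at least 2 requires more fasted input, so the first share was largely fixed in advance. In 13 of the 565 genes the NONO fold over its own input was above the rescaled IgG fold over its own input (2.3%, against 1% of the 3390 genes). Over all genes at the minimum 8 (0.228%) had a NONO fold at least 2 times the rescaled IgG fold. The rescaling multiplies the IgG folds by 1.45, which can only lower both counts. The part of RNA abundance in the higher tags was not tested further. The 8 genes were Acot12, 1300002E11Rik, Map3k13, BC048644, Car5a, Agtpbp1, Tln2 and Dennd2a.

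**Figure D3:**
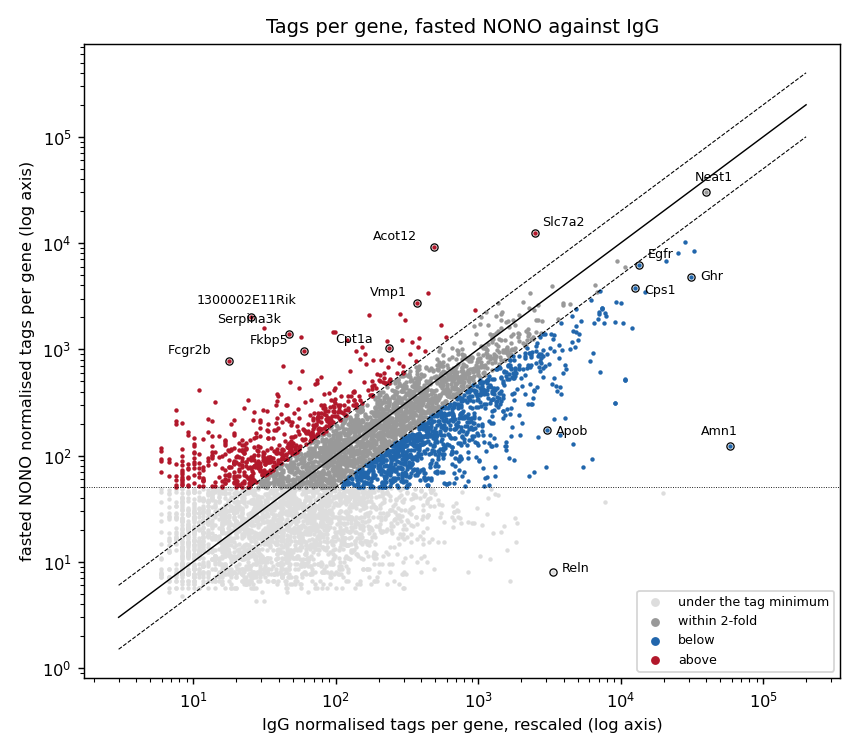
Normalised tags per gene in fasted NONO peaks (vertical log axis) against rescaled IgG peaks (horizontal log axis) for the 5905 genes with both; the full line is equality, the dashed lines 2-fold and the dotted line the minimum of 50 tags. Acot12, Slc7a2, Vmp1 and Fcgr2b lie well above the upper dashed line, Neat1 lies just under equality, and Amn1 and Reln lie far below.

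Acot12, a hydrolase that releases acetate from acetyl-CoA, stood above IgG by tags and by fold over input. Its 1 fasted peak (chromosome 13, 91742077 to 91750481, intronic) held 9183 normalised tags at 8.4-fold over input, and also covers the small RNA gene Gm24597. The 10 IgG peaks over the gene held 492.7 rescaled tags at 3.93-fold. The ratio was 18.6 (95% exact interval 17.2 to 20.3), the density ratio 28, and the re-fed libraries held 4164 tags at 2 h and 3457 at 10 h. The fasted value was the highest of the 4.

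1300002E11Rik, a long intergenic RNA gene, and Map3k13, a kinase gene that it overlaps, share an IgG-free peak (chromosome 16, 21795580 to 21800761) of 1975 tags at 22.1-fold over input. Summed over each gene, 1300002E11Rik had 2026 fasted tags and 25.27 in IgG, and Map3k13 2160 and 281.2, so the ratios were 80.2 (56.1 to 119) and 7.68 (6.87 to 8.61). Without the largest peak of each list Map3k13 was at 0.917, so its call rests on that region. The overlapping genes BC048644 and Car5a, the latter a mitochondrial carbonic anhydrase, likewise share 1 peak of 495.9 tags, and had ratios of 10.3 and 0.881 because their IgG peaks differ.

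Slc7a2 encodes a cationic amino acid transporter, and its locus also gives CTN-RNA, a nuclear-retained transcript known to sit in paraspeckles. It held 12328 normalised tags in 10 fasted peaks, 3925 at 2 h, 5804 at 10 h and 2499 rescaled tags in IgG, a ratio of 4.93 (4.75 to 5.13). The largest peak (chromosome 8, 40905753 to 40910317) lay in an intron 76.2% of the way along the gene, with 8327 tags at 4.37-fold. Over the gene the fold over input was 3.34 for NONO and 3.65 for rescaled IgG, and the inputs held 3695 and 685.6 tags. Without the rescaling factor of 1.45 the IgG fold lies below that of NONO, so for Slc7a2 the order by fold depends on the rescaling. Without the largest peak of each list its ratio was 2.01. Neat1 itself had 30057 fasted tags against 39728 in IgG, a ratio of 0.757 (0.748 to 0.766) that turns to 1.21 with the deposited IgG values, at 4.33-fold over input against 3.63-fold. Neat1 was thus within 2-fold of IgG by tags under both scalings.

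Fbxo3, a subunit of a ubiquitin ligase, had 1898 fasted tags at 5.96-fold over input, 744.8 at 2 h, 1122 at 10 h and 308.2 in IgG at 3.44-fold, a ratio of 6.16 (5.53 to 6.87). Without the largest peak of each list Fbxo3 was at 1.01, so its call rests on the peak at chromosome 2, 104057025 to 104059717 (1669 tags). Tdo2, the first enzyme of tryptophan breakdown, had 1992 fasted tags, 908.8 at 2 h, 235.8 at 10 h and 1045 in IgG, a ratio of 1.91 (1.79 to 2.03) with folds of 3.84 and 3.19. These 2 genes were high by fold and highest in the fasted library. Ratios over 20 against 1 small IgG peak included Fcgr2b (777.8 against 17.76 tags, 43.8), Stk24 (414.8 against 10.94, 37.9), Tesk2 (210.5 against 7.582, 27.8), Cdk19 (200.2 against 8.414, 23.8) and Zfp799 (319.5 against 14.32, 22.3). Their counting intervals are wide, for example 22 to 71.4 for Stk24. By density Stk24 (1.46), Tesk2 (1.64) and Cdk19 (1.11) were within 2-fold of IgG, while Zfp799 was at 2.18 and Fcgr2b at 9.32. In all 5 the fold over input was lower for NONO than for IgG, as in Stk24 (5.02 against 9.9) and Cdk19 (3.28 against 14.5). The IgG inputs under these peaks were low, from 0.5814 rescaled tags for Tesk2 and Cdk19 to 4.477 for Fcgr2b. The IgG folds of these genes thus rest on few input reads.

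Fkbp5 and Crebrf were above IgG and were picked after their values had been seen. Fkbp5, a co-chaperone of the glucocorticoid receptor, had 961.2 tags in 16 fasted peaks, 229.9 at 2 h, none at 10 h and 59.79 in IgG, a ratio of 16.1 (12.7 to 20.7). Crebrf, a regulator of the CREB3 family, had 624.2 fasted tags, 240.3 at 2 h, 151.1 at 10 h and 58.1 in IgG. In both the fasted library was the highest of the 4. Their folds over input were 2.2 and 2.24, below the 11.2 and 6.94 of IgG.

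**Figure D4:**
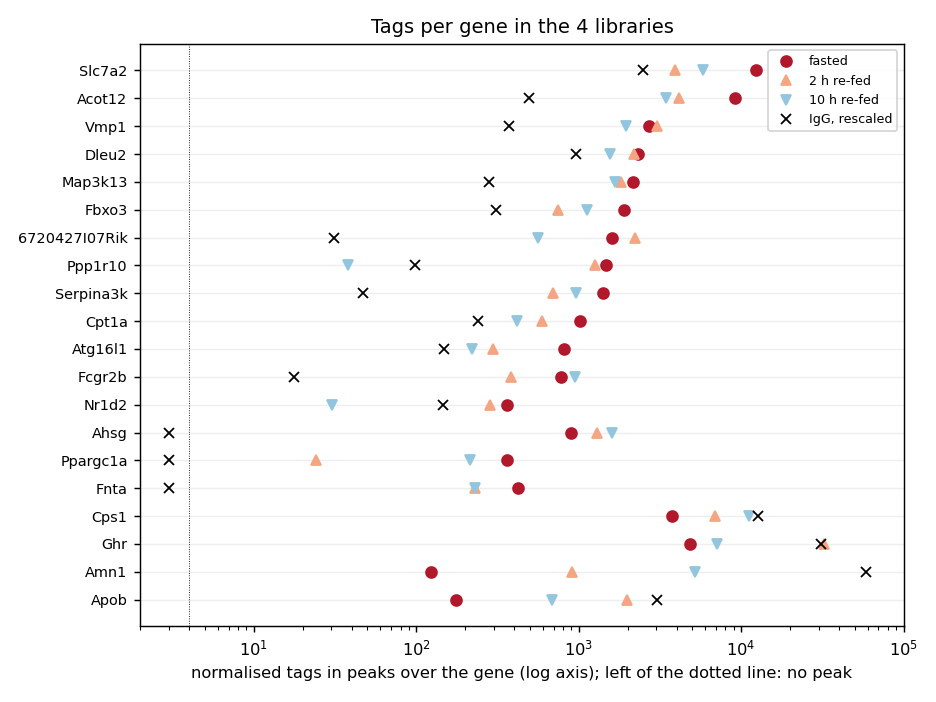
Normalised tags in peaks over 20 genes (horizontal log axis) in the fasted, 2 h and 10 h NONO libraries and in the rescaled IgG library; symbols left of the dotted line mark no peak. Slc7a2, Acot12, Fbxo3 and Cpt1a are highest in the fasted library, while Cps1 and Amn1 are highest in IgG.

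Among the 119 genes with no IgG peak, the largest value after the mitochondrial ribosomal RNA region, whose peak touches mt-Nd1 with 20307 tags, was Ahsg, the plasma protein fetuin-A. Ahsg (with the antisense Gm30505) had 895.3 fasted tags at 2.85-fold, 1291 at 2 h and 1596 at 10 h, so it was lowest when fasted. Gsto1, a glutathione transferase inside Cfap43, had 655.6 tags at 7.89-fold fasted, 181.1 at 2 h and 112.7 at 10 h. Fnta, a subunit of protein farnesyltransferase, had 421.7 tags at 6.12-fold, then 229.9 and 228.2. Ppargc1a, the coactivator that switches on gluconeogenic and oxidative genes, had 359.4 tags in 12 fasted peaks at 2.64-fold, 24.2 at 2 h and 214.6 at 10 h. Its largest peak (chromosome 5, 51454998 to 51456705) lay over an untranslated exon 98.6% of the way along the gene. Gsto1, Fnta and Ppargc1a were thus highest in the fasted library.

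The remaining IgG-free genes with the most tags were AC117816.1 (398 tags), Gm13267 (332.8), the overlapping Sass6, Gm42893 and Gm42457 (305.2 in 1 shared peak) and Ncapd2 (288.6, over a small RNA gene). Of these, Ncapd2 had 55.5 tags at 2 h and no peak at 10 h. Because a peak list holds only regions above its threshold, no fold is given for a gene without an IgG peak. At 100 tags or more, 44 of the 119 genes were left.

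Genes of fatty acid oxidation and ketogenesis had the highest median ratio of the 13 pathway lists, 1.03 over 25 genes against 0.682 over all genes with both peaks. Over members of at least 50 tags its median was 1.13, below the 1.24 of glycolysis and above the 0.809 of all genes. Of 31 genes 27 had a fasted peak and 20 reached 50 tags, of which 4 were above IgG (16.1% of all genes), 10 within 2-fold, 5 below (27.3%) and 1 had no IgG peak. Those above were Acot12, Ehhadh of peroxisomal oxidation (100.8 against 13.47 tags, 7.48), Cpt1a, the carnitine gate of mitochondrial oxidation (1021 fasted, 591.7 at 2 h, 419.1 at 10 h, 238.4 in IgG, 4.28), and Cpt2, its inner-membrane partner (96 against 31.1, 3.09). Bdh1, which interconverts the ketone bodies, had 113.6 fasted tags and no IgG peak. The members below included Acsl1, which activates long-chain fatty acids (473.5 against 3295, 0.144). The list is split, with shares above and below near those of all genes. By density 7 were above (6.5% of all genes) and 0 below, with Acsl1 at 1.31, and with the deposited IgG values 7 were above and 4 below. Of the 4 above by tags, Acot12 (28) and Cpt1a (2.33) were also above by density, while Ehhadh (1.85) and Cpt2 (1.41) were within 2-fold. Acadm was below by tags (0.276) and above by density (2.61). Among the members named here and in the next lists, those outside the naming rule were chosen after their values had been seen.

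Among gluconeogenic enzymes and fasting regulators 19 of 33 had a fasted peak and 16 reached the minimum, with 1 above, 10 within 2-fold, 4 below and 1 without IgG, and a median of 0.607. The share below, 25%, was near the 27.3% of all genes, of which 16.1% were above. By density 5 were above and 0 below (all genes: 6.5% and 3.45%), with a median of 1.45 over the members at the minimum. Got1, the cytosolic aspartate aminotransferase, was above (204.9 against 42.23 tags, 4.85). The transcription factors Foxo1 (0.812), Foxo3 (0.634) and Ppara (0.581) were within 2-fold, and the glucocorticoid receptor gene Nr3c1 was below (304.2 against 2221, 0.137, but 0.982 by density). Pck1 and G6pc, the enzymes that commit carbon to glucose, had no fasted peak, beside 4679 and 59.03 IgG tags. In amino acid breakdown and the urea cycle 31 of 50 had a fasted peak, and of 21 at the minimum 1 was above (Slc7a2), 6 within 2-fold, 12 below and 2 without IgG. Cps1, the entry enzyme of the urea cycle, had 3763 fasted tags against 12637 in IgG (0.298), and Kynu of the kynurenine pathway 928.1 against 6440 (0.144). With the deposited IgG values 7 were below and by density 2 (12.9% and 3.45% of all genes). Tat, the glucocorticoid-induced tyrosine aminotransferase, had no fasted peak and 6088 IgG tags.

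Lipogenesis and sterol synthesis gave 0 genes above, 1 within 2-fold and 11 below out of 12 at the minimum (all genes: 16.1% above, 27.3% below), with a median ratio of 0.314 over 21 genes. Acly, which makes cytosolic acetyl-CoA, had 70.39 against 2469 tags (0.0285), Elovl6 223.9 against 4045 (0.0553) and Acaca 657 against 4114 (0.16), and Fasn had no fasted peak and 3433 IgG tags. With the IgG tags as deposited 5 of the 12 were below (12.9% of all genes), and by density 2 were (3.45% of all genes), with a median density ratio of 0.905. The low sums of this list went with a shorter covered length, 87.1 kb against 363 kb. Weaker signal can also appear as a shorter covered length, because density is taken within called peaks only. Acly had 845.7 tags at 2 h and 377 at 10 h, and Elovl6 8600 and 1240, so the fasted value was the lowest of the 3 NONO libraries for both. The labels do not say whether the IgG livers were fasted or fed.

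Insulin, growth hormone and nutrient signalling gave 1 above, 7 within 2-fold and 11 below of 19, with a median of 0.49. For this and the next 3 lists the shares over all genes were 16.1% above and 27.3% below. Ghr, the growth hormone receptor, had 4829 fasted tags against 31158 in IgG (0.155), Igf1 550.6 against 2865 (0.192) and Egfr 6180 against 13463 (0.459, but 3.14 by density). Pdpk1, the kinase that activates AKT, was above (254.8 against 104.3, 2.44). With the deposited IgG values 5 of the 19 were below, and by density 0 (12.9% and 3.45% of all genes). Glycogen genes gave 2 above, 5 within 2-fold and 4 below of 11. Ppp1cb was above (2.22), but at 0.537 without the largest peak of each list, and Pygl, liver glycogen phosphorylase, was below (62.2 against 1155, 0.0538). Glycolysis gave 1 above, 3 within 2-fold and 2 below of 6. Autophagy gave 2 above, 5 within 2-fold and 3 below of 10, led by Atg16l1, part of the LC3-conjugating complex (815.8 fasted, 298.4 at 2 h, 220.5 at 10 h, 149.1 in IgG, 5.47). Of its tags 86.8% lay in 1 peak that covers the small RNA gene Gm25395, and without the largest peak of each list it was at 1.49. By density 1 glycogen gene was above and 2 were below, with 1 and 0 for glycolysis and 1 and 0 for autophagy (all genes: 6.5% and 3.45%).

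Clock genes at zeitgeber time 10 gave 1 above, 4 within 2-fold, 5 below and 1 without IgG of 11, with a median of 0.431, and by density 0 were below. Over all genes 16.1% were above and 27.3% below by tags, and 3.45% below by density. Nr1d2, the repressor REV-ERB beta, was above (364.2 fasted, 284 at 2 h, 30.1 at 10 h, 146.5 in IgG, 2.49). Ciart, a repressor of the CLOCK dimer, had 86.1 fasted tags and no peak at 2 h, 10 h or in IgG. Per2 had 21.83 fasted tags and 439.8 at 2 h, against 1522 in IgG. Nr1d2 and Ciart were thus highest in the fasted library, and Per2 in IgG.

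Secreted hepatocyte proteins gave 4 above, 7 within 2-fold, 8 below and 1 without IgG of 20. The shares over all genes, for this and the next lists, were 16.1% above and 27.3% below. Serpina3k, a serine protease inhibitor whose peak also covers Serpina3m, had 1404 fasted tags, 698.9 at 2 h, 962 at 10 h and 47.19 in IgG (29.8), and Serpinc1, antithrombin, 243.9 against 41.27 (5.91). Trf, transferrin, was below (309.1 against 9073, 0.0341). By density 4 were above and 3 below (all genes: 6.5% and 3.45%). Cytochrome P450 and bile acid genes gave 3 above, 9 within 2-fold, 12 below and 1 without IgG of 25, with Cyp3a13 above (952.8 against 139.8, 6.81) and Cyp2c29 below (610 against 7198, 0.0847). By density 4 were above and 4 below. Among paraspeckle and other nuclear RNA-binding proteins 1 was above, 11 within 2-fold, 6 below and 1 without IgG of 19. With the deposited IgG values 7 were above and 5 below (29.8% and 12.9% of all genes), and by density 3 and 2. Nono itself had 101.7 fasted tags against 54.71 (1.86) and Sfpq 44.2 against 85.9, while Sfpq had 2861 tags at 2 h and 1468 at 10 h.

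**Figure D5:**
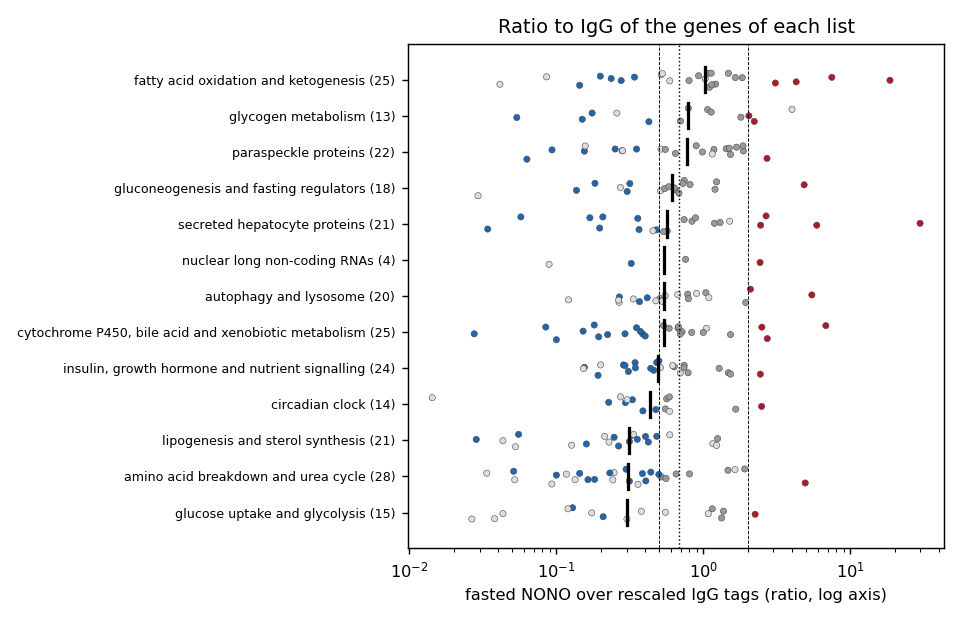
Ratio of fasted NONO to rescaled IgG tags (horizontal log axis) for each gene with both peaks in 13 lists, with the number of such genes in brackets; bars are list medians, the dotted line the median of all genes (0.682) and the dashed lines 2-fold. Red genes are above, blue below, dark grey within 2-fold and pale grey under 50 tags; lipogenesis has no red gene.

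The genes far below IgG were of different kinds. Amn1, with 122.6 fasted tags against 58405, and Zc3hav1, with 44.15 against 19944, each had 1 strong intronic IgG peak with most of its tags (ratios 0.0021 and 0.00221). Reln, a secreted protein of stellate cells in liver, had 8.08 fasted tags against 3329 in 104 IgG peaks (0.00243), and Ccbe1 6.66 against 1677 in 46. In both genes the density ratios were nearer to 1, at 0.531 and 0.442. Each had 1 fasted peak near the threshold of 5.23 normalised tags, so density cannot tell weaker signal from a shorter covered length. Of the 4868 genes with at least 50 rescaled IgG tags, 38.8% had a fasted peak and were at least 2-fold below, and 18.1% had no fasted peak. The latter were led by the peak over Rpph1, the RNA of RNase P, which also touches Ccnb1ip1 and Parp2 (130648 and 130626 tags), and by Rmrp, the RNA of RNase MRP (20721). Alb, albumin, had 5220 IgG tags and no fasted peak.

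Cell type markers with a fasted peak were counted beside all genes, of which 7081 of 32106 had one. Of 12 hepatocyte markers 3 (Hnf4a, Cps1 and Apob) had a fasted peak, all 3 below IgG by tags (Hnf4a was at 1.45 by density), 6 had an IgG peak only and 3 had neither. Alb, Ttr and Cyp2e1 were among those with no fasted peak. Of 14 Kupffer cell markers 3 had a fasted peak (at most 53.7 tags), of 16 endothelial markers 8, of 16 stellate markers 3, of 12 cholangiocyte markers 2 and of 16 lymphocyte and erythroid markers 2. Summed over each list, fasted and rescaled IgG tags were 4478 and 36259 for hepatocytes, 77.46 and 72.46 for Kupffer cells, 1647 and 1251 for endothelium, 98.44 and 5248 for stellate cells, 41.37 and 165.1 for cholangiocytes and 263.9 and 158.3 for lymphocytes and erythroid cells. The stellate difference lay mainly in Reln and Hgf, and Fcgr2b had 777.8 of the fasted endothelial tags. The part of cell composition in the gene ratios was not tested.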

How the data were processed

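Nuclear lysates were incubated with anti-NONO or IgG beads and sequenced as stranded total RNA, per the labels' protocols. Tools listed in the submitters' processing notes were STAR 2.4.0k, FastQC 0.11.2 and HOMER, with the build mm10. HOMER peaks, per the file headers, were 500 bp windows merged when within 1000 bp, irrespective of strand, with 2-fold or more over the matched input and at least 11 tags (8 for IgG). The deposited signal is tags per 10000000, the deposited fold is the authors' ratio to scaled input, the deposited score is HOMER's, used to rank IgG peaks, and deposited IgG counts gave the Rn7sk share. A missing NONO peak can therefore reflect a high input. Each deposited column was mapped to a sample.

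Peaks were laid on GENCODE M21 (21951 coding and 10155 non-coding genes) and counted for every gene body touched by 1 bp. Each peak took 1 class by its midpoint. Ratios are sums of normalised tags, with exact intervals (95%) of the counts; calls need 50 tags and 2-fold. The members, the 19 gene lists and the rules were chosen with earlier results of these data known. Named genes, among those overlapping at most 5 others, were the 12 with most fasted tags and no IgG peak, the 12 highest and 8 lowest ratios at 200 tags or more, the 8 with most IgG tags and no fasted peak, the genes under the 10 largest IgG-free peaks, up to 4 per list with most tags, and 15 set genes; all other named genes were chosen after their values were seen. Overlap and ratio code was tested on simulated data. The software was pandas 2.3.3, numpy 2.4.6 and scipy 1.17.1 under Python 3.11.15. Some genes that this rule names are not reported here.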

Additional observations from a re-analysis of the deposited data

How the results depend on the processing

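The number of IgG-free fasted peaks (25317) ranged from 18075 to 30253 over 5 alternatives for overlap, IgG threshold and chromosomes, and was 7185 of 8014 with both lists at 4-fold over input. Genes at least 2-fold above IgG (565) numbered 1044 with IgG as deposited, 357 at a minimum of 100 tags, 303 at 3-fold, 216 at 4-fold, 46 with both lists at 4-fold over input, 317 without each gene's largest peak in each list, 228 by density, and 8 by the ratio of folds over input, which was added after the data had been seen. Genes at least 2-fold below with a fasted peak and 50 rescaled IgG tags (1888) numbered 1015 with IgG as deposited, 886 at 4-fold, 1234 with both lists at 4-fold over input and 417 by density. Genes with no IgG peak (119) numbered 252 against the 38209 best-scoring IgG peaks, 467 at 20 tags, 44 at 100 tags and 23 with both lists at 4-fold. The median gene ratio (0.682) was 1.09 with IgG as deposited and 0.316 at 4-fold. Of 40 named genes above or below, 36 kept 2-fold with IgG as deposited, 30 with peaks over 1 gene only, 23 by density, 20 without the largest peak of each list and 12 with both lists at 4-fold over input. No ratio was left for 26 genes with both lists at 4-fold, 14 without the largest peak and 8 with peaks over 1 gene only. Direction turned by density: Egfr 3.14, Hnf4a 1.45, Acsl1 1.31, Rora 1.34, Me1 1.17 and Per3 1.5. Aktip (0.602) and Hgf (2.15) turned with both lists at 4-fold over input, Map3k13 with peaks over 1 gene only (0.545) or without its largest peak (0.917), and Ppp1cb without its largest peak (0.537). The causes were not tested beyond the counts given. No paired analysis was possible because a group holds 1 library only. Depth limits values near the thresholds of 11 and 8 tags.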

Other observations

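The genes below were chosen after their values had been seen, and each library is 1 sample. Gfra1, the receptor of the growth factor GDNF, had 3395 normalised tags in 45 fasted peaks, 799.5 at 2 h, 564.8 at 10 h and 448 in IgG, a ratio of 7.58 (6.94 to 8.29). Slc1a2, a glutamate transporter, had 1286 fasted tags, 470.4 at 2 h, 71.15 at 10 h and 386.5 in IgG. Cyp4a12a, a fatty acid hydroxylase, had 512.6, 165.9 and 12 tags in the same order and 74.08 in IgG. In all 3 genes the fasted library was the highest of the 4, while the fold over input was 2.25, 2.57 and 2.31 for NONO against 6.18, 5.13 and 4.57 for IgG.

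In 3 genes the fold over input was far above that of IgG although their tags were not. Dennd2a had 1 fasted peak of 51.8 tags at 49.2-fold, beside 9 IgG peaks of 112.9 tags at 8.23-fold. Tln2, a talin of the cytoskeleton, had 155.5 tags at 29.5-fold, beside 459.1 at 6.54-fold. Agtpbp1, a carboxypeptidase that trims tubulin, had 155.5 tags at 12.3-fold, beside 166.8 at 4.84-fold. The inputs under these fasted peaks were low, at 1.052 tags for Dennd2a, 5.261 for Tln2 and 12.63 for Agtpbp1, so the folds rest on few input reads.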
